A study of Mus musculus with 7 samples.

Results

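Binding of PU.1 and MITF in mouse myeloid cells was examined at 9 genes of B cell development and B cell receptor signaling: Pax5, Ebf1, Cd79a, Cd79b, Blk, Rag1, Rag2, Ikzf1 and Ikzf3. All 9 were found among the 22367 protein-coding genes of the GENCODE annotation of mm9, and a peak was assigned to a gene when its center lay in the gene or within 50 kb of either end. ChIP-Seq, in which DNA bound by a protein is pulled down with an antibody and sequenced, was done on bone marrow cells of C57BLACK6 mice aged 4 to 6 weeks. MPs (myeloid precursors) had 3 days of culture with 50 ng per mL CSF1 only. The 36 h cells and the OCs (osteoclasts) additionally received 100 ng per mL RANKL, for 36 h and 72 h. PU.1 and MITF were each precipitated with 5 µg of antibody at all 3 stages, and nonspecific IgG was precipitated from MPs. Each of the 7 conditions has 1 library, so no value below has a replicate error, and every interval and p covers counting error only. The number of animals behind a library is not given in the sources used here.

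PU.1 is an ETS family transcription factor that myeloid cells and B cells both need, and it binds partly different loci in these lineages. In B cells it binds the loci of B lineage regulators and of receptor components, often with partners such as IRF4, IRF8 and E2A. MITF, a partner of PU.1 in osteoclasts, binds E-box sequences through its basic helix-loop-helix domain. Pax5 and Ebf1 encode transcription factors that set the B cell program. Cd79a and Cd79b encode the signaling chains of the B cell receptor, and Blk encodes a Src family kinase downstream of it. Rag1 and Rag2 encode the recombinase that assembles antigen receptor genes. Ikzf1 (Ikaros) and Ikzf3 (Aiolos) encode zinc finger factors of lymphoid cells, and Ikzf1 is also used in myeloid cells. The lists hold no expression values, so neither the level of these genes nor any marker of the cells could be checked here.

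The 9 windows together held 64 of the 76243 PU.1 peaks in MPs, 70 of 71941 at 36 h and 78 of 77072 in OCs, each peak counted once. MITF gave 6 of 5413 peaks in MPs, 4 of 3540 at 36 h and 5 of 4443 in OCs. None of the 349 IgG peaks lay in these windows, and the IgG list starts at a score of 22.4. Peak Score counts the sequenced fragments (tags) in a peak after HOMER has brought every library to the same size. One tag was worth 1.71, 1.48 and 1.47 in the PU.1 MP, 36 h and OC lists, whose lowest peaks had 6, 7 and 7 tags. In the MITF lists the lowest peaks had 9, 10 and 8 tags. PU.1 peaks were mostly 150 bp wide in MPs and OCs and 190 bp wide at 36 h.

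The strongest PU.1 site of each gene window is printed first, because these are the stretches of DNA on which the highest scores rest. Rag1 and Rag2 lie side by side, and the same peak was the strongest for both. Positions are on mm9, the strand is plus, and 150 bases around the peak center are given from the library in which the site scored highest. Capitals mark the PU.1 core GAGGAA on either strand and, in the Cd79b site, the ETS-IRF composite GAANTGAAA. Of the Cd79a site 30 bases are shown, around the core nearest the peak center, because the peak overlaps untranslated exon sequence of Rps19.
Pax5 (chr4:44568511-44568660): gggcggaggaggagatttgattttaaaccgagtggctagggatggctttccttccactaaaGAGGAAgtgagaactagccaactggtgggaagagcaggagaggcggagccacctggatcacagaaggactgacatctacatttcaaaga
Ebf1 (chr11:44821644-44821793): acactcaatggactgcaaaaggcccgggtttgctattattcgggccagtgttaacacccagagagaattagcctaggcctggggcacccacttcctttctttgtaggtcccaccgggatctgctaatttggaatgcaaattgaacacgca
Cd79a (chr7:25669434-25669463): aggaaacggaaaGAGGAAccagatccctta
Cd79b (chr11:106167221-106167370): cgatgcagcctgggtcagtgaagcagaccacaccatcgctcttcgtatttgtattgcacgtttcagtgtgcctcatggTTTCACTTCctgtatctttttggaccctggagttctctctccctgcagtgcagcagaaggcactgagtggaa
Blk (chr14:64066869-64067018): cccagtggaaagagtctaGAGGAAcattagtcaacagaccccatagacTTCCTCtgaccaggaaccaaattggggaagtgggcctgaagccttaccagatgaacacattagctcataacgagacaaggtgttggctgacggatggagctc
Rag1 and Rag2 (chr2:101491122-101491271): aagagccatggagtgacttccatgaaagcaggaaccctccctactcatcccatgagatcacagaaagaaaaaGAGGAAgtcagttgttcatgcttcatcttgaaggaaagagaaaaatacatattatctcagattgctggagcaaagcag
Ikzf1 (chr11:11663469-11663618): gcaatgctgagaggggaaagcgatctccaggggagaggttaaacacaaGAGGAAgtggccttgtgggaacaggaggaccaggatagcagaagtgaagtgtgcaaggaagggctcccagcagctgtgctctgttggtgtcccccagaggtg
Ikzf3 (chr11:98442118-98442267): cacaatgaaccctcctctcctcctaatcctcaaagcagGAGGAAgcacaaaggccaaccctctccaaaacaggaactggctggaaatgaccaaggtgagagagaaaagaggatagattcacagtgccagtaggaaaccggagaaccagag
The PU.1 core was present in 6 of these 8 sites, and the longer form GAGGAAGT in 4 of 8. In the Rag1 and Rag2 site the core sat at the peak center, 0 bp away. The core lay 11 bp from the center in Pax5, 24 bp in Ikzf1 and 34 bp in Ikzf3. The Blk site held 2 cores, and so did the Cd79a site, of which 1 is among the 30 bases shown. The Ebf1 and Cd79b sites lacked GAGGAA, and the Cd79b site held the ETS-IRF composite 7 bp from its center. The E-box CACGTG was in 0 of the 8.

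All 9 genes had at least 1 PU.1 peak at each stage, where 83.8%, 83.3% and 83.8% of all protein-coding genes had one in MPs, at 36 h and in OCs. The genes differed widely in how many peaks they had. Median density over the 9 was 7.42 peaks per 100 kb in MPs, 6.23 at 36 h and 7.63 in OCs. All protein-coding genes had medians of 4.72, 4.64 and 4.85. In a list of 18 myeloid genes, such as Csf1r and Itgam, the medians were 11.58, 10.79 and 12.51. Above the median of all genes were 5, 6 and 6 of the 9 B cell genes and 18, 17 and 18 of the 18 myeloid genes.

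**Figure D1:**
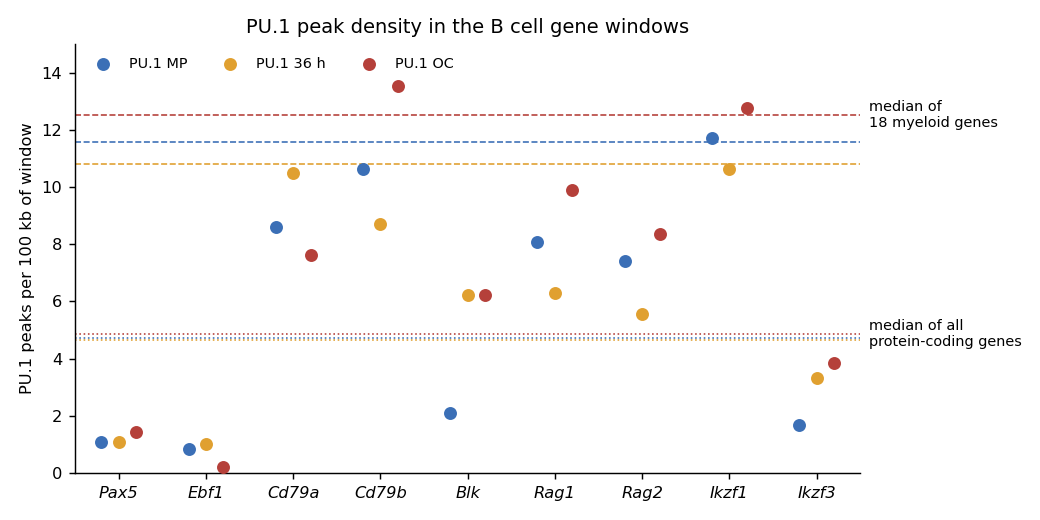
Each point is the number of PU.1 peaks per 100 kb of a gene's window (the gene and 50 kb on either side) in 1 library, with MP in blue, 36 h in orange and OC in red. Dotted lines are the medians of all protein-coding genes (4.72, 4.64 and 4.85) and dashed lines those of 18 myeloid genes (11.58, 10.79 and 12.51). Ebf1 and Pax5 lie lowest at all 3 stages, and the highest is Ikzf1 in MPs and at 36 h and Cd79b in OCs.

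The transcription factor genes Pax5 and Ebf1 were the most sparsely occupied. Pax5 (chromosome 4, 44544017 to 44724318) had 3 PU.1 peaks in MPs, 3 at 36 h and 4 in OCs. Its density of 1.07, 1.07 and 1.43 peaks per 100 kb stood at the 23.3rd, 23.6th and 24.4th percentile of all protein-coding genes. The strongest Pax5 site lay in an intron, 128.1 kb downstream of the nearest annotated Pax5 start, with scores of 34.1 in MPs (20 tags), 25.1 at 36 h (17 tags) and 35.2 in OCs (24 tags). The Poisson intervals of these scores, 20.8 to 52.7, 14.6 to 40.2 and 22.6 to 52.4, all overlapped. No Pax5 site lay within 1 kb of a Pax5 start.

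Ebf1 (chromosome 11, 44430819 to 44821593) is the longest of the 9 at 391.0 kb and has no other protein-coding gene in its window. It had 4 PU.1 peaks in MPs, 5 at 36 h and 1 in OCs. The peaks listed at the first stages but not in OCs had 6 to 15 tags. The lowest OC peak had 7 tags, and sites missing from a list were not tested, so no change is claimed there. The site in all 3 lists lay just past the 3′ end of the gene, 96.08 kb from the nearest Ebf1 start, and scored 17.1 (10 tags), 23.7 (16 tags) and 25.0 (17 tags). Its OC over MP difference was 0.57 on the log2 scale with an interval of -0.64 to 1.86.

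The receptor genes Cd79a and Cd79b are short and crowded by neighbors. Cd79a (chromosome 7, 25682400 to 25687216) had 9, 11 and 8 PU.1 peaks in MPs, at 36 h and in OCs. In 0 of these peaks was the Cd79a start the nearest protein-coding start. The strongest site of its window lay in an exon of Rps19, a ribosomal protein gene, 12.94 kb upstream of Cd79a. Scores there were 69.9, 60.6 and 66.1, from 41, 41 and 45 tags. The peak within Cd79a itself lay in an exon, 4.71 kb past the Cd79a start and 0.82 kb upstream of the Arhgef1 start, which was nearer. This peak had 12, 7 and 20 tags. From 36 h to OC it was 1.40 higher on the log2 scale (p = 0.0321, exact binomial test), which did not hold after adjustment over all shared peaks (adjusted p = 0.687, exact binomial test).

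Cd79b (chromosome 11, 106172655 to 106176076) had 11, 9 and 14 PU.1 peaks, the highest density of the 9 in OCs at 13.54 per 100 kb. Only 3, 3 and 3 of these had the Cd79b start as the nearest. The strongest site was intergenic, 8.55 kb downstream of the Cd79b start and 4.12 kb from the start of Gh, the growth hormone gene. It had 107 tags in MPs, 80 at 36 h and 92 in OCs, which are scores of 182.5, 118.3 and 135.1. MPs were thus higher than both later libraries, by 0.50 on the log2 scale against 36 h (p = 0.0191, exact binomial test) and by 0.41 against OCs (p = 0.0467, exact binomial test). Neither passed after adjustment (adjusted p = 0.297 and 0.622, exact binomial test). The intervals of the later library over MPs were -0.94 to -0.07 for 36 h and -0.83 to 0.01 for OCs.

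Blk (chromosome 14, 63991674 to 64036024) went from 3 PU.1 peaks in MPs to 9 at 36 h and 9 in OCs. The added peaks were weak, with 7 to 11 tags each. Its strongest site lay 30.92 kb upstream of Blk, in an intron of Fam167a, and had almost the same tags at all stages, 107, 106 and 107. With the intervals of the scores at 149.6 to 220.5, 128.3 to 189.5 and 128.7 to 189.8, the stages were not distinguishable. Within Blk an intronic peak 5.48 kb from the start scored 61.4 in MPs (36 tags), 28.1 at 36 h (19 tags) and 35.2 in OCs (24 tags). The 36 h value was lower than that of MPs by 1.0 on the log2 scale (p = 0.0146, adjusted p = 0.262, exact binomial test).

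Rag1 (chromosome 2, 101478439 to 101489658) and Rag2 (chromosome 2, 101464875 to 101472685) face each other, and their windows share 10 sites. Rag1 had 9, 7 and 11 PU.1 peaks and Rag2 had 8, 6 and 9, so both were lowest at 36 h. The one strong site lay 1.54 kb upstream of Rag1 and 1.51 kb from a start of B230118H07Rik, with scores of 158.6 in MPs (93 tags), 122.7 at 36 h (83 tags) and 127.8 in OCs (87 tags). No other site in both windows exceeded 30.7 in any library. Apart from an OC peak of 8 tags inside Rag1, no peak had a start of Rag1 or Rag2 as the nearest. Starts of B230118H07Rik and of Traf6, which transmits RANK signals, were the nearest for all others. The Rag1 window alone reached a Traf6 intron site of 23, 35 and 35 tags and, at its edge, an OC peak of 13 tags.

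Ikzf1 (chromosome 11, 11585006 to 11672929) stood apart from the other 8 by number of sites. It had 22 PU.1 peaks in MPs, 20 at 36 h and 24 in OCs, and in 15, 14 and 16 of these an Ikzf1 start was the nearest. Its density was at the 91.1st, 89.0th and 93.1st percentile of all protein-coding genes. In the body of the gene lay 12, 12 and 12 peaks. Ikzf1 was also the only member with a PU.1 site within 1 kb of one of its own annotated starts. At 2 bp from a start the scores were 39.2 in MPs (23 tags), 63.6 at 36 h (43 tags) and 42.6 in OCs (29 tags). At another start, 66 bp away, the site had 33, 33 and 34 tags.

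The strongest site of all 9 windows was in an intron of Ikzf1, 63.32 kb past the nearest Ikzf1 start, with 114, 143 and 142 tags (scores of 194.5, 211.4 and 208.5). Its nearest protein-coding start was that of Fignl1, 37.92 kb away. A site 17.29 kb upstream of Ikzf1 scored 185.9 in MPs, 130.1 at 36 h and 110.1 in OCs. The tags were 109, 88 and 75, and OCs were lower than MPs by 0.73 on the log2 scale with an interval of -1.18 to -0.29 (p = 0.000656, exact binomial test). After adjustment over all 60100 shared peaks this difference did not pass (adjusted p = 0.116, exact binomial test).

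Ikzf3 (chromosome 11, 98326216 to 98407345) had 3 PU.1 peaks in MPs, 6 at 36 h and 7 in OCs. All 7 sites that were not in the MP list had 7 to 9 tags. The strongest site lay between genes, 34.85 kb upstream of Ikzf3 and 6.49 kb from the start of Ormdl3, with 44, 65 and 57 tags (scores of 75.1, 96.1 and 83.7). The site nearest to an Ikzf3 start, 1.51 kb upstream, had 14, 7 and 10 tags. Its only peak in the gene body was an OC peak of 9 tags.

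**Figure D2:**
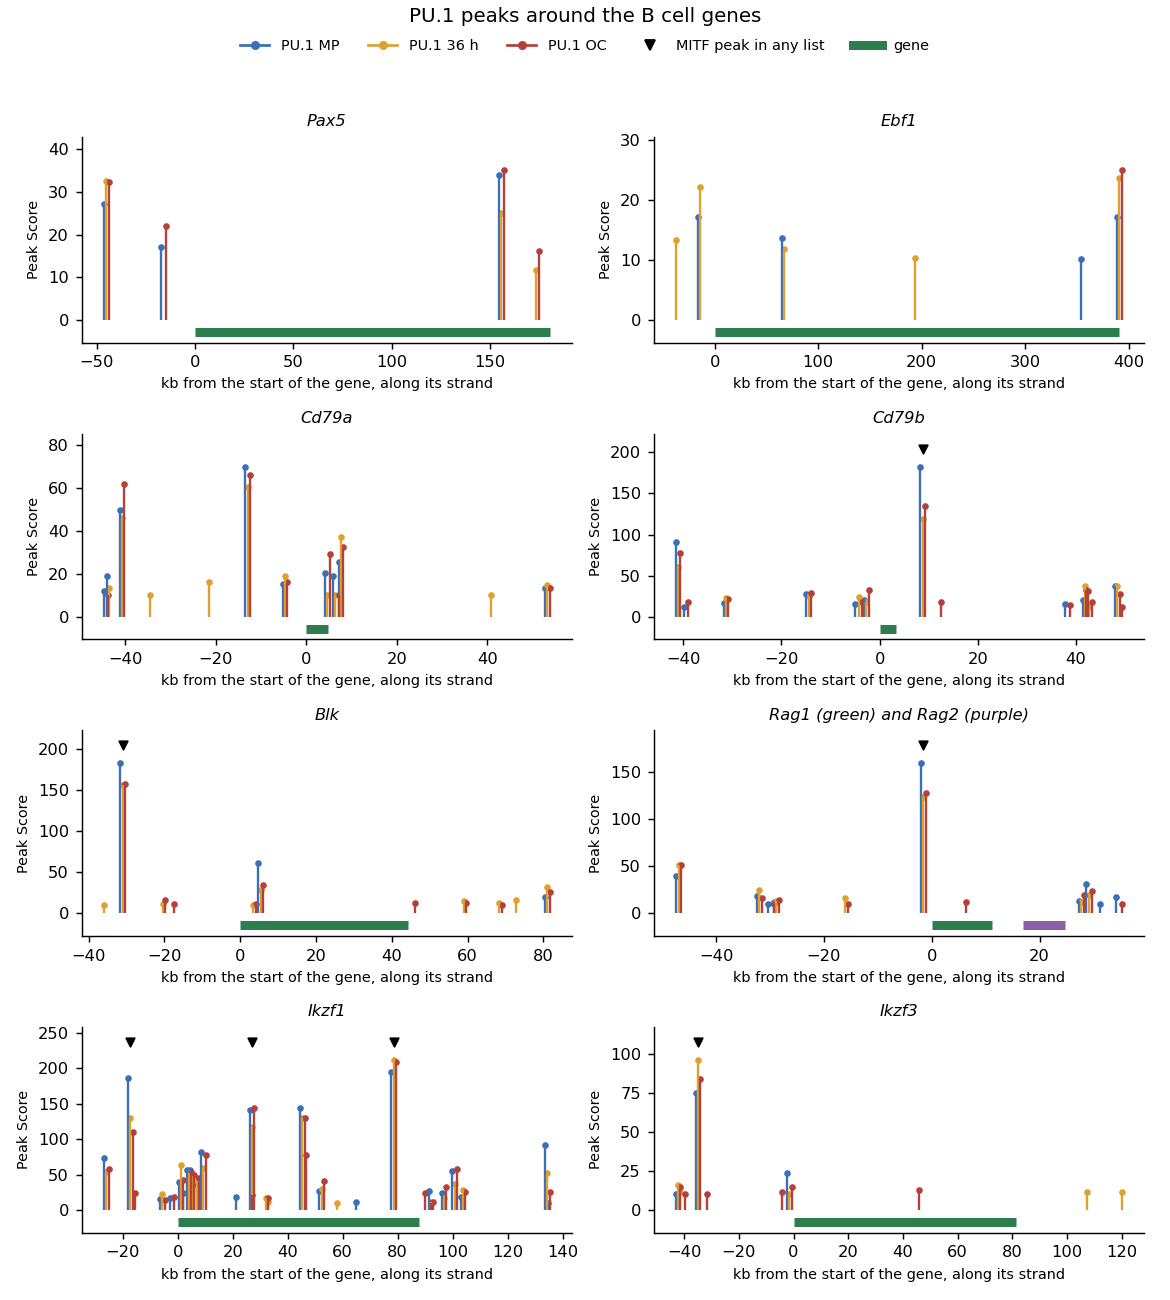
Vertical lines are PU.1 peaks at their distance in kb from the start of the gene, read along its strand, with height equal to Peak Score (MP blue, 36 h orange, OC red, drawn slightly side by side). Green bars are the genes, the purple bar is Rag2, and black triangles mark sites with a MITF peak in any list. The tallest peaks of Cd79a, Cd79b, Blk and Ikzf3 stand outside the gene, and those of Ikzf1 stand inside it and upstream.

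**Figure D3:**
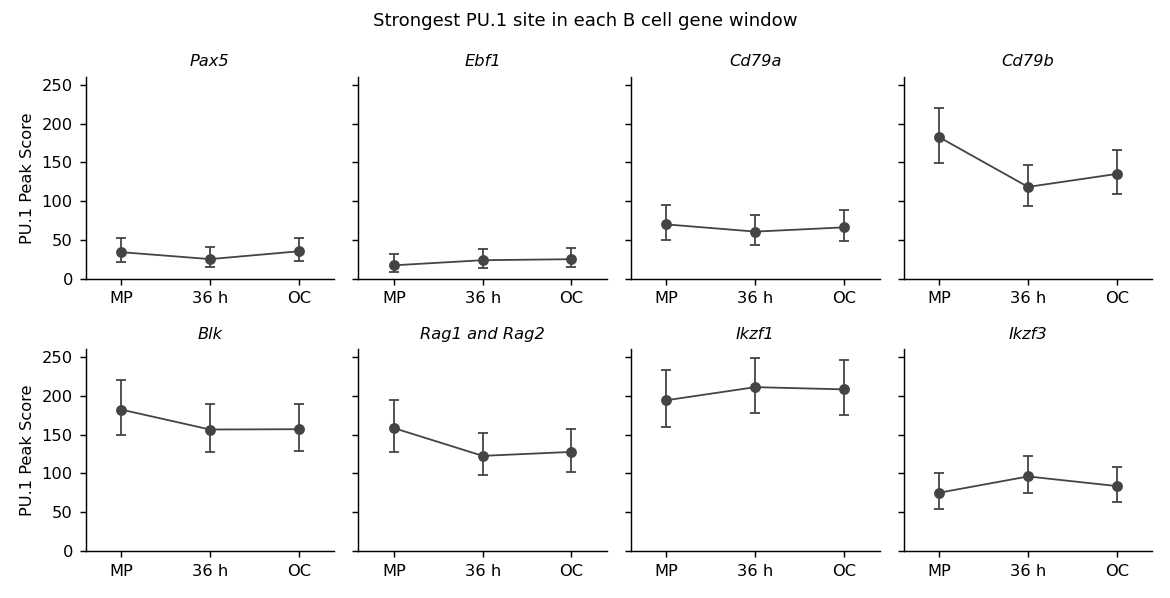
Points are the PU.1 Peak Score of the strongest site in each window in MPs, at 36 h and in OCs, from 1 library each, and bars are 95% Poisson intervals of the tags. The sites differ far more between genes, from 17.1 at Ebf1 to 211.4 at Ikzf1, than between stages.

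Because the windows hold neighbors, the highest score of a window was set beside the highest score among peaks whose nearest protein-coding start was that of the gene itself. For the 9 B cell genes the median of the first was 158.6 in MPs, 118.3 at 36 h and 127.8 in OCs. The median of the second was only 23.9, 23.7 and 25.0, a gene with no such peak counted as 0. All protein-coding genes had medians of 71.6, 65.0 and 70.5 for the whole window and 22.2, 22.2 and 23.5 for peaks nearest to the own start, so on the second measure the B cell genes were close to the background. For the 18 myeloid genes the medians stayed close, with 194.4, 165.6 and 179.1 for the whole window and 164.6, 145.6 and 163.0 for peaks nearest to the gene's own start. Ikzf1 was the exception among the B cell genes, at 185.9, 130.1 and 143.9. Blk had 61.4, 28.1 and 35.2, Pax5 34.1, 25.1 and 35.2, and Cd79b 27.3, 25.1 and 32.3. Ebf1 had 17.1, 23.7 and 25.0 and Ikzf3 23.9, 10.3 and 14.7, while Cd79a and Rag2 had no such peak and Rag1 had only one of 11.7 in OCs. Peaks nearest to an own start made up 40.6%, 40.0% and 39.7% of the PU.1 peaks of the 9 windows. Of these 26, 28 and 31 peaks, 15, 14 and 16 were at Ikzf1. The same share was not computed for the myeloid or all other windows, so it is not a trait of the B cell genes.

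Other gene lists were measured in the same way. Of 26 further B cell genes, 25 matched the annotation by name (Syk did not). These had median densities of 6.58, 7.52 and 7.08 PU.1 peaks per 100 kb, ranging in OCs from 1.58 at Pou2af1, a B cell coactivator, to 23.11 at Cd72, a coreceptor. Their median highest score nearest to the own start was 87.0, 65.0 and 73.4, above that of the 9. The 16 T cell genes had median densities of 4.01, 4.52 and 6.23, with Tcf7 lowest and Cd4 highest in OCs. The 16 nonblood genes had 3.27, 2.63 and 3.38, and 13 of the 16 had a peak in OCs. The lists overlapped widely in range, and no test was made between them.

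**Figure D4:**
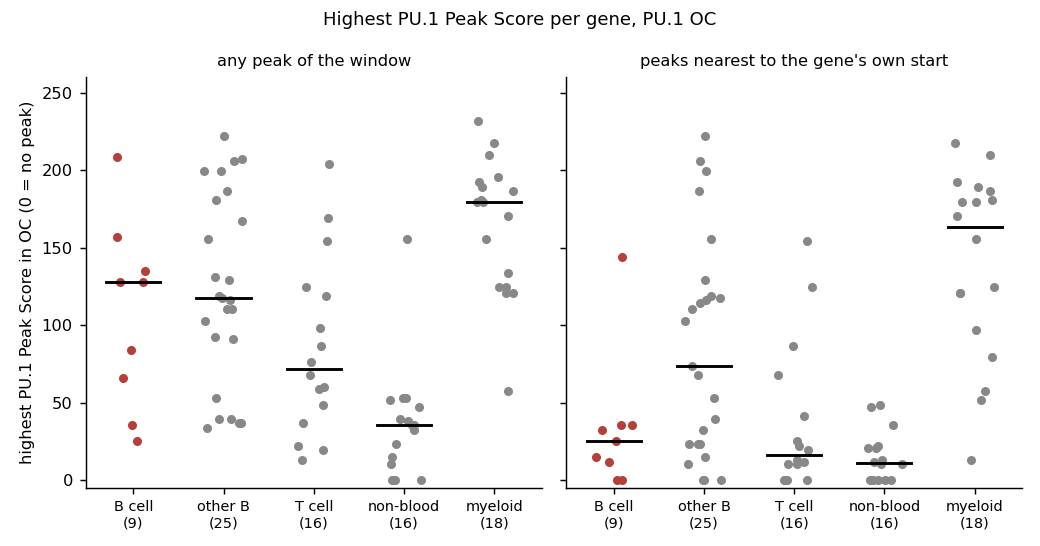
Each point is 1 gene and the bar is the median of its list, in the PU.1 OC library. The left panel gives the highest Peak Score of any peak in the window, and the right panel that of peaks whose nearest protein-coding start is the gene's own (0 where there is none). The B cell median goes from 127.8 to 25.0 between the panels and the myeloid median from 179.1 to 163.0.

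The gene most like each member was taken as the one with the smallest Euclidean distance in log2(peaks per 100 kb + 1) over the 6 PU.1 and MITF libraries. Only genes of the 4 comparison lists were candidates, so neither the other members nor the remaining protein-coding genes could be chosen. Ikzf1 was closest to Lyz2, the lysozyme gene of macrophages (distance 0.456), the only member whose nearest gene was in the myeloid list. Cd79a was closest to Spib (0.364), Cd79b to Ms4a1 (0.584), Blk to Cd22 (0.978), Rag1 to Bach2 (0.657) and Ikzf3 to Tcf3 (0.744), all of the list of other B cell genes. Pax5 was closest to Bcl11b (0.513) and Rag2 to Thy1 (0.587), both T cell genes, and Ebf1 to Umod (0.290), a kidney gene. Rag1 and Rag2, whose windows share most of their sites, thus fell to different lists. The densities include peaks near neighboring genes and the lists differ in size, so the list of the closest gene is a description only.

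Merging the PU.1 peaks of the 3 lists by overlap gave 100 sites in the 9 windows. Left out was an OC peak of 13 tags at the edge of the Rag1 window, whose merged site had its center outside. That peak is counted among the OC peaks and the shared peaks. In MPs, at 36 h and in OCs alike, 46 of the 100 were listed, where the share was 50.5% of all 102370 PU.1 sites and 61.3% of the 331 sites of the myeloid genes. A further 16 sites were listed in OCs only (10.3% of all sites), 12 at 36 h only (9.03%) and 7 in MPs only (11.1%). At 36 h and in OCs but not in MPs there were 8 (6.17%), in MPs and OCs 7 (8.27%), and in MPs and at 36 h 4 (4.56%). The 35 sites of a single list had a median score of 11.8, against 32.1 for the mean score of the 46 common sites, and 29 of the 35 scored under 2 times the lowest PU.1 score. Over all PU.1 sites these medians were 11.9 and 33.8, and 27771 of 31200 sites of a single list scored that low. At the myeloid genes 66 of 80 did. Sites found at a single stage were thus mostly near the calling limit, in these windows as elsewhere.

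An exception, chosen after its values were seen, was an OC peak in an intron of Ikzf1, 30.51 kb past its nearest start, with 53 tags and a score of 77.8. Its center lay 470 bp from the neighboring site 30.04 kb past that start, which was listed in all 3 libraries with 84, 88 and 88 tags. Peaks this close were rare in the lists. Centers within 500 bp of the next made up 1.74% of peaks in MPs, 0.147% at 36 h and 1.66% in OCs, and the part of this spacing in the missing MP and 36 h peaks was not tested.

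Of the 100 sites 51 lay in introns, 12 in exons and 37 between genes. Over all PU.1 sites these shares were 50.3%, 6.95% and 42.7%. Within 1 kb of any protein-coding start lay 26.0% of the sites in the B cell windows, 21.1% in the myeloid windows and 13.5% of all sites, and only 2 of the sites in the B cell windows this close belonged to a member, both at Ikzf1.

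Tags at peaks listed in both libraries of a pair were compared by an exact binomial test against the median ratio of all shared peaks in the genome, and calls required both a 2-fold difference or more and a Benjamini-Hochberg adjusted p below 0.05. The 3 PU.1 comparisons share libraries, so they are not independent. From MPs to OCs the 9 windows held 54 shared peaks, and 1 was called changed, where 0.156% of all 60100 shared peaks were. Of the 54, 0 were at least 2-fold higher in OCs and 2 were at least 2-fold lower, against 3.00% and 2.38% of all shared peaks. An unadjusted p under 0.05 (exact binomial test) was found at 3 of the 54. The median log2 fold change was 0.08 in the B cell windows, 0.05 at the 226 shared peaks of the myeloid genes and 0.00 over all.

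The changed peak lay in Ddc, which encodes an enzyme of dopamine and serotonin synthesis, and not in a B cell gene. It belongs to the Ikzf1 window by distance but was 3.51 kb from a start of Ddc and 119.19 kb from the nearest start of Ikzf1. PU.1 tags there were 54 in MPs, 35 at 36 h and 17 in OCs, which are scores of 92.1, 51.7 and 25.0. The OC value was lower than that of MPs by 1.86 on the log2 scale with an interval of -2.74 to -1.05 (p = 5.67e-07, adjusted p = 0.00262, exact binomial test). The step from 36 h to OC was -1.16 (adjusted p = 0.406, exact binomial test).

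**Figure D5:**
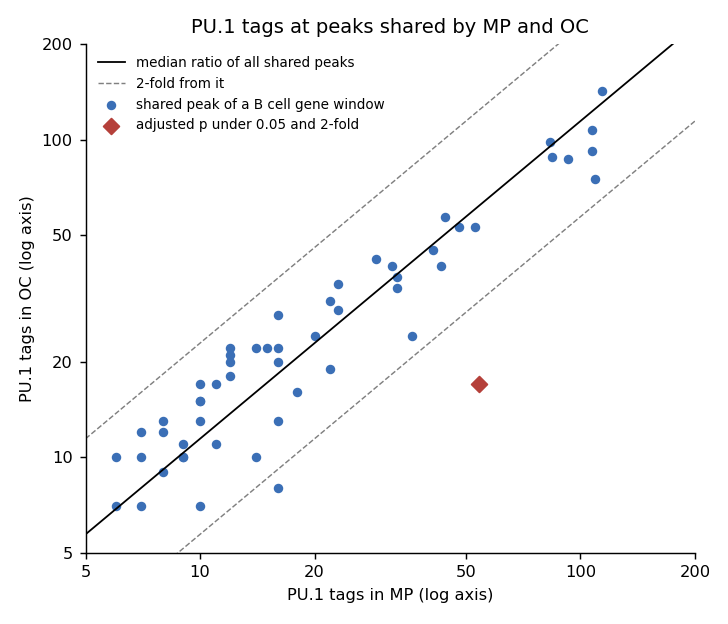
Each point is a PU.1 peak of a B cell gene window that was listed in MPs and OCs, with its tags in MPs on the horizontal and in OCs on the vertical log axis. The solid line is the median ratio of all shared peaks (1.1429), the dashed lines are 2-fold from it, and the red diamond is the peak in Ddc with 54 and 17 tags.

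From MPs to 36 h the windows held 50 shared peaks. The PU.1 peaks at 36 h were 190 bp wide against 150 bp, and the part of this width in the tags of both 36 h comparisons, beyond the median ratio, was not tested. The exact binomial test called 0 of them, where 1.05% of all 56340 were called, and 4 had an unadjusted p under 0.05. At least 2-fold higher were 0 and at least 2-fold lower were 3 (4.02% and 3.41% of all). From 36 h to OC the test called 0 of 55 (0.0707% of all 58013), and 2 had an unadjusted p under 0.05. There, 1 was at least 2-fold higher and 1 lower (2.01% and 2.61%). The share of all shared peaks with an unadjusted p under 0.05 was not counted, so these counts have no background beside them. Median tags, summed over the 2 libraries compared, were only 36.0, 37.0 and 40.0 per member peak from MPs to OCs, from MPs to 36 h and from 36 h to OCs. Intervals at a typical site were therefore wide, as at the Cd79b site 2.70 kb upstream, where 12 and 22 tags at 36 h and in OCs gave 0.76 with an interval of -0.32 to 1.91.

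Most members thus had no called difference at any step, which does not show that their occupancy stayed the same. At the strongest sites the intervals of the OC over MP difference on the log2 scale were -0.24 to 0.49 for Ikzf1, -0.59 to 0.21 for Blk, -0.73 to 0.15 for Rag1 and Rag2, -0.41 to 0.78 for Ikzf3 and -0.70 to 0.59 for Cd79a. At Cd79b the interval was -0.83 to 0.01. At Pax5 it was wide, -0.85 to 1.0, with only 20 and 24 tags, and at Ebf1 it was -0.64 to 1.86, with 10 and 17 tags.

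MITF peaks were far fewer than PU.1 peaks in these windows. In MPs 6 of the 9 genes had a MITF peak in the window, at 36 h 4 and in OCs 4, where 32.1%, 24.0% and 28.8% of all protein-coding genes had one. Rag1 and Rag2 count separately here for the same peak. Counting only MITF peaks nearest to a gene's own start, 1 of the 9 genes had one at each stage, which was Ikzf1, against 14.6%, 10.3% and 12.7% of all protein-coding genes. Of the 18 myeloid genes 17, 14 and 15 had a MITF peak anywhere in the window. Pax5, Ebf1 and Cd79a had 0 MITF peaks at all stages. Each of the 15 MITF peaks in the windows overlapped a PU.1 site, and these were 7 of the 100 PU.1 sites, against 7.02% of all PU.1 sites and 12.4% of the sites of the myeloid genes. The paper reports that most MITF-bound loci genome-wide were also bound by PU.1, so such overlap is not particular to these windows. The share over all MITF peaks was not counted here.

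Ikzf1 held the highest MITF scores of the 9. Its intronic site, the strongest for PU.1, had 18 MITF tags in MPs, 25 at 36 h and 12 in OCs, and the site 17.29 kb upstream had 16, 25 and 13. Peaks of the MITF 36 h list are up to 1387 bp wide, and these were 192 and 198 bp wide against 150 bp in MPs and OCs, so MITF tags at 36 h were not tested. Another site in Ikzf1, 11.81 kb past a start, had a MITF peak in OCs only, of 8 tags, the lowest in that list.

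The strong sites near Blk and Rag1 also had a MITF peak at all 3 stages. At Blk the MITF tags were 10, 10 and 11, and upstream of Rag1 they were 9, 11 and 8. At Cd79b and Ikzf3 a MITF peak was listed in MPs only, of 11 and 9 tags at the strongest PU.1 site of each window. In their own lists the MITF peaks of Blk, Rag1, Cd79b and Ikzf3 stood between the 8.5th and the 55.2nd percentile, and those of Ikzf1 with 12 tags or more between the 53.4th and the 79.6th. From MPs to OCs 4 MITF peaks were shared, 0 were called by the exact binomial test (0% of 2844), 0 had an unadjusted p under 0.05, and 0 were at least 2-fold higher or lower (1.37% and 2.50% of all). Their log2 fold changes ran from -0.34 to 0.38, and their intervals were wide, from -1.50 to 1.62 at Rag1 and from -1.23 to 1.09 at the upstream Ikzf1 site.

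Each peak was searched for the letters of known motifs, on either strand and up to 75 bp from its center, and a match describes the sequence only. The PU.1 core GAGGAA was in 36 of the 64 PU.1 peaks of the B cell windows in MPs, 40 of 70 at 36 h and 46 of 78 in OCs, or 56.2%, 57.1% and 59.0%. All PU.1 peaks of the same lists gave 54.9%, 55.5% and 55.7%, and those of the myeloid genes 57.2%, 56.9% and 55.0%. The longer GAGGAAGT, which contains the core, was in 26.6%, 28.6% and 30.8%, against 22.1%, 22.5% and 22.3% of all peaks and 26.5%, 25.0% and 23.9% at the myeloid genes.

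Motifs of partners that PU.1 has in B cells were counted next. CAGNTG, bound by E2A, was in 35.9%, 34.3% and 38.5% of the PU.1 peaks of the B cell windows and in 28.7%, 29.5% and 29.0% of all. The peaks of the myeloid genes had it in 31.5%, 37.1% and 34.3%, so the B cell windows were above them in MPs and OCs and below them at 36 h. CCCNNGGG, bound by EBF, was in 6.25%, 5.71% and 6.41% of the peaks of the B cell windows, which are 4, 4 and 5 peaks. The shares were 3.44%, 3.85% and 3.65% over all peaks and 4.28%, 5.65% and 4.29% at the myeloid genes. The ETS-IRF composite GAANTGAAA was in 3, 3 and 4 peaks, and the looser GAANNGAAA, which includes it, in 8, 9 and 11. The first was in 4.69%, 4.29% and 5.13% of the peaks, against 5.77%, 4.66% and 5.09% of all. It was thus below the share of all peaks in MPs and at 36 h. The looser form was in 12.5%, 12.9% and 14.1%, against 11.6%, 9.9% and 10.6% of all. At the myeloid genes the shares were 3.5%, 3.63% and 3.57% for the first and 7.0%, 6.85% and 6.43% for the looser form.

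Motifs of myeloid partners were in few peaks. TGANTCA, bound by AP-1, was in 3, 4 and 3 peaks of the B cell windows, in OCs 3.85% against 8.53% of all and 9.64% at the myeloid genes, and TTGCNNAA, bound by C/EBP, was in 3, 4 and 5, in OCs 6.41% against 8.30% and 7.86%. With so few peaks these shares rest on single sites. The E-box CACGTG was in 0 of the 15 MITF peaks of these windows, where 2.24%, 2.20% and 1.87% of all MITF peaks had it in MPs, at 36 h and in OCs, and TCACGTG, which contains it, in 1.06%, 1.06% and 0.992%. The PU.1 core was in 5 of the 6, 4 of the 4 and 5 of the 5 MITF peaks, beside 67.1%, 68.5% and 67.1% of all MITF peaks. At the myeloid genes 64.7%, 77.3% and 79.2% of the MITF peaks had the core, and CACGTG was in 0 of 34, 0 of 22 and 0 of 24. The 15 MITF peaks lay at 7 sites, so the 3 stages largely repeat the same DNA.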

How the data were processed

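The 7 peak lists were analysed, 1 per condition. Per the labels and the methods of the study, the authors used CASAVA 1.8, mapped reads to mm9 with Bowtie2 and called peaks with HOMER; the calling settings are not given in the sources used here. The deposited Peak Score is a signal, the tags of a peak scaled to a common library size. Peaks were taken as deposited, with no further background correction.

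Scores were whole multiples of the worth of 1 tag to within 0.05, and division gave tags. Peaks held 32.0%, 27.6% and 30.8% of the tags of the PU.1 libraries and 0.832%, 1.20% and 0.657% of the MITF libraries, assuming that the common size is HOMER's default (10000000 tags). Centers were assigned to genes with the GENCODE annotation of mm9, and positions are as listed. Shared peaks overlap by at least 1 bp. Tags were tested with the two-sided exact binomial test given their sum and Benjamini-Hochberg adjustment over all shared peaks, checked on simulated data. Printed sequences come from the mm9 genome. Sites were described singly where strongest in a window, within 1 kb of an own start, with MITF or past the test, and others were chosen after their values were seen. Members and lists were chosen with earlier results of these data known. Python 3.11.15 was used with numpy 2.4.6, pandas 2.3.3, scipy 1.17.1, pysam 0.24.0 and matplotlib 3.10.9.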

Additional observations from a re-analysis of the deposited data

How the results depend on the processing

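The number of peaks in the B cell windows depended mostly on what counted as a peak and as its gene. With a minimum of 2 times the lowest score in each list, there were 36, 36 and 42 PU.1 peaks in MPs, at 36 h and in OCs and 1, 2 and 0 MITF peaks, which left no MITF pair to test. Counting only peaks whose nearest protein-coding start was that of a member left 26, 28 and 31 for PU.1 and 1, 1 and 2 for MITF. A window of 20 kb gave 41, 41 and 50 PU.1 peaks, and one of 100 kb gave 105 and 108 in MPs and at 36 h, with 8 MITF peaks in OCs. With the lists of a factor cut to equal size, MITF in MPs had 3 peaks. OCs had more PU.1 peaks than MPs under each of these settings, and the 36 h count equaled the MP count under the higher score and the narrow window. Leaving out peaks that overlap an IgG peak could not change these counts, since no IgG peak lay in the windows. The IgG list starts at a score of 22.4, so weaker background was not listed. The number of changed shared peaks in the windows (1, 0, 0 and 0) was the same under each alternative run. Taking the ratio of library sizes moved all log2 fold changes by -0.02 from MPs to OCs, by -0.12 from MPs to 36 h, by 0.11 from 36 h to OCs and by -0.10 for MITF. It raised the calls over the genome from 593 to 1005 from MPs to 36 h. No paired analysis was possible because each condition has 1 library, which also leaves no library that could be left out. MITF at 36 h was not tested, since its peaks vary in width up to 1387 bp. PU.1 peaks at 36 h, mostly 190 bp wide against 150 bp, were tested against the median ratio, and their calls carry this limit.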
